A study of Oryza sativa with 18 samples.

Results

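Genome windows without an R-loop peak were the subject here. Each rice chromosome was divided into adjacent 20 kb tiles, from its start to the highest peak end in any of the 18 deposited peak lists, and a full tile was called empty when no peak of either 8 µg library overlapped it by 1 bp or more. Of 18643 full tiles, 999 (5.36%) were empty, together 19.98 Mb. The tiles were chosen by the peak positions of the 2 libraries made from the largest amount of DNA, so the absence of 8 µg peaks is the definition and not a result. Every comparison below uses the 16 other libraries.

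An R-loop is a structure in which an RNA strand pairs with one strand of the DNA duplex and leaves the other strand single. It forms mostly where RNA is being transcribed, and RNase H, an enzyme that cuts RNA within such hybrids, removes it. In plants R-loops have been mapped over promoters, gene bodies and some transposable elements, whereas the surroundings of centromeres are rich in repeats and poor in active genes. ISRH-seq labels R-loops in purified DNA: RNase H nicks the RNA of the hybrid, DNA polymerase I extends from the nick with biotin-carrying nucleotides, and the labelled strand is captured on streptavidin and sequenced. A tile without a peak is a stretch in which no signal of that library was called above its local background. Whether labelling was absent there cannot be read from a peak list.

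All libraries came from seedlings of rice (Oryza sativa) of the wild type. There were 2 libraries each from 8 µg, 5 µg, 3 µg, 1 µg, 500 ng and 250 ng of DNA, sheared by sonication before labelling, and 1 from 100 ng. A further library is titled RNaseH, 2 are titled salt and 2 are titled CK(salt), their control. The salt plants were grown with 150 mM NaCl and sampled after 3 days; the treatment label of the CK(salt) libraries reads the same as that of the salt libraries, so the titles were used. The labels give neither the DNA input of the RNaseH, salt and CK(salt) libraries nor when RNase H was applied to the library of that name, and they do not say whether replicates came from separate plants. The p-values below therefore rest on the variation among libraries alone, and that may be technical.

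The 15 libraries other than 8 µg and RNaseH held 14845 to 58704 peaks, and the 8 µg lists held 70518 and 65955. The background read coverage, solved from the deposited fold and p-value of each summit, was 11.4 and 12.7 in the 8 µg libraries, 0.88 in the 100 ng library, 3.1 in the RNaseH library and 3.88 to 8.6 in the others. The 100 ng library therefore stood apart, and the correlations with input are also given without it. Ranges and means over 15 libraries include it. Peak names carried the tag "uniq" in 12 of the lists, among them all 11 input libraries below 8 µg, and lacked it in 6, the 8 µg, salt and CK(salt) lists; the tag is not explained in the sources used here. Aligned sequence was not examined, so whether reads can be placed in the empty tiles was not tested.

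The rule turned on single peaks at its edge. Replicate 1 of the 8 µg pair left 1171 tiles empty and replicate 2 left 1180, with 172 tiles empty in replicate 1 that held a peak in replicate 2, and 181 the other way round. Just outside the rule lay 303 tiles with exactly 1 peak in the 2 lists together, and the median percentile of that peak within its list, ranked by q-value, was 18.4. The median tile held 4 peaks in each 8 µg list.

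Empty tiles were found on all 12 chromosomes, in unequal shares. Chromosome 4 had the highest share, 146 of 1775 tiles (8.23%), followed by chromosome 8 with 113 of 1422 (7.95%) and chromosome 5 with 95 of 1491 (6.37%). Chromosome 3 had the lowest, 39 of 1820 (2.14%), and chromosomes 1 and 2 were also low, at 71 of 2162 (3.28%) and 56 of 1796 (3.12%). The other 6 chromosomes lay between 5.66% and 6.21%. The 3 chromosomes with the lowest shares are the longest in the lists. The next longest, however, is chromosome 4 with the highest share, at 35.5 Mb against 35.9 Mb for chromosome 2. As the values come from the defining lists, they are descriptions and were not tested.

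**Figure D1:**
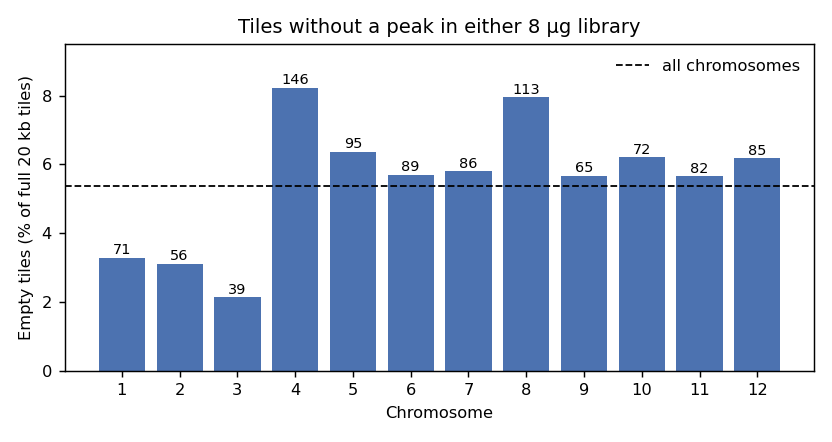
Share of full 20 kb tiles that were empty in both 8 µg lists, by chromosome (bars, percent; the number above each bar counts empty tiles). The dashed line marks the share over all chromosomes, 5.36%; chromosomes 4 and 8 stand highest and chromosome 3 lowest.

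Along the chromosomes empty tiles were somewhat more frequent in the interior. More than 5 Mb from the outermost positions 765 of 12650 tiles (6.05%) were empty, against 5.36% of all tiles. These are 76.6% of all empty tiles, but the zone also holds most tiles of any kind, 12650 of 18643. The belt between 1 and 5 Mb had 180 of 4800 (3.75%), and the outermost 1 Mb at either side had 54 of 1193 (4.53%), so the ends themselves were not the emptiest nor the fullest zone. With every chromosome divided into 20 equal stretches, the stretch from 40% to 45% of the length was emptiest over all chromosomes, at 125 of 932 tiles (13.4%), and the stretch from 85% to 90% was the fullest, at 1.61%.

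Each chromosome had its own emptiest stretch. On chromosome 4 it lay at 40% to 45% of the length, where 40 of 89 tiles (44.9%) were empty. On chromosome 11 the same stretch was emptiest (31.5%), and on chromosome 5 likewise (28.0%). On chromosomes 8 and 9 it lay at 20% to 25% (29.2% and 22.4%), on chromosome 6 at 55% to 60% (26.9%), and on chromosome 12 at 60% to 65% (20.3%). The weakest maxima were those of chromosomes 1 and 2, both at 35% to 40% of the length, with 14.8% and 13.3%. The positions of the centromeres on the deposited coordinates were not used here, because no genome of that build was at hand.

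**Figure D2:**
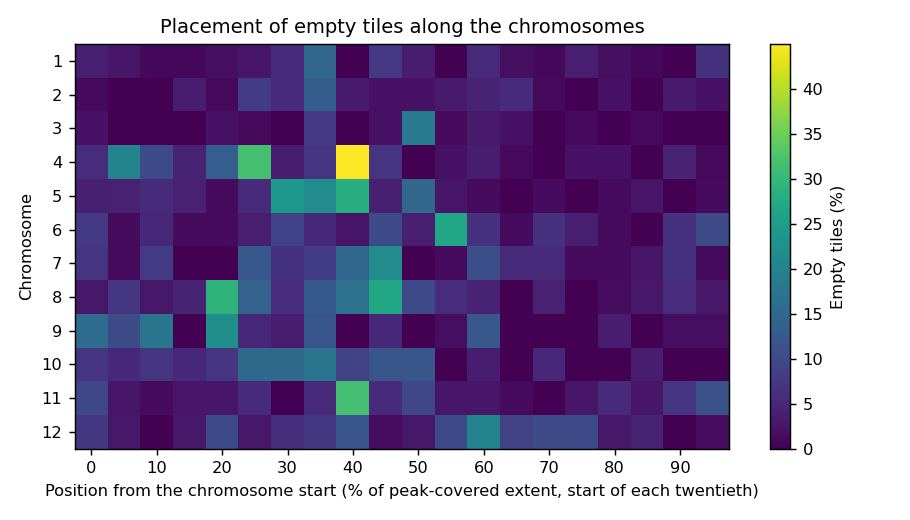
Share of empty tiles (colour, percent) in 20 equal stretches of each chromosome. The x axis gives the start of each stretch as a percent of the length covered by peaks, and the y axis the chromosome; bright cells lie in the interior of most chromosomes, with the highest at 40% to 45% of chromosome 4 (44.9%).

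A small number of 1 Mb windows held many of the empty tiles. Of 367 windows of 1 Mb, 103 held no empty tile and the median window held 1, while 19 windows (5.18%) held 10 or more and together contained 276 empty tiles (27.6%). The fullest were chromosome 6 from 18000001 to 19000000 and chromosome 11 from 12000001 to 13000000, each with 22 of 50 tiles empty (44%). Chromosome 4 followed with adjoining windows from 14000001 and from 15000001, with 20 and 21 empty tiles. On chromosome 5 the 3 adjoining windows between 10000001 and 13000000 held 14, 15 and 15. Chromosome 8 had 2 separate groups, 16 and 13 tiles in the windows from 6000001 and 7000001, and 12 and 16 in those from 12000001 and 13000001.

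About as many empty tiles stood alone as adjoined another. There were 482 single tiles, 92 runs of 2 tiles, 51 runs of 3 or 4 tiles (172 tiles) and 24 runs of 5 to 13 tiles (161 tiles). The longest was 13 tiles, 260 kb, on chromosome 4 from 15580001 to 15840000; the nearest 8 µg peaks on either side were 269.9 kb apart. The next was 11 tiles on chromosome 11 from 12320001 to 12540000, within a peak-free gap of 236.1 kb. Chromosome 8 had 3 of the 10 longest, 9 tiles each from 6840001 to 7020000 and from 13160001 to 13340000, and 7 tiles from 7100001 to 7240000.

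The remaining 5 of the 10 longest runs lay on other chromosomes. They were 8 tiles on chromosome 6 from 18300001 to 18460000, 8 on chromosome 5 from 15280001 to 15440000, and 7 each on chromosome 1 from 16760001 to 16900000, on chromosome 7 from 12140001 to 12280000 and on chromosome 9 from 4780001 to 4920000. Gaps of this length were rare: the median gap between neighbouring peaks of the pooled 8 µg lists was 2.75 kb, 1473 gaps were 20 kb or longer, and 34 were 100 kb or longer.

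The 16 other lists shortened some of the long gaps. With all 18 lists pooled, 1143 gaps of 20 kb or more and 24 of 100 kb or more were left, and the gap of 269.9 kb on chromosome 4 and that of 236.1 kb on chromosome 11 were still the longest. Of the 10 longest runs, 4 held no peak of any library: the 2 longest, the run from 13160001 on chromosome 8, and that on chromosome 7. The run from 6840001 on chromosome 8 held 3 peaks in 1 tile, from 5 µg replicate 1 and both 3 µg libraries. The run on chromosome 6 held 1 peak each of 250 ng replicate 1 and CK(salt) replicate 1, and the run on chromosome 5 held 1 of 1 µg replicate 1. The runs on chromosomes 1 and 9 held peaks in 2 tiles each, from 5 µg and 3 µg libraries and from 5 µg and 500 ng libraries, respectively. The run from 7100001 on chromosome 8 held 4 peaks in 2 tiles, from 1 µg, 500 ng and 250 ng libraries.

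Over all empty tiles, 232 (23.2%) held a peak in at least 1 of the 16 other libraries, where 95.6% of all full tiles did. The other 767 (76.8%, or 4.11% of all full tiles) held none in any of the 18 lists. Of the 232, 78 had a peak in 1 library and 35 in 5 or more, with a maximum of 10 libraries. The 232 tiles contain sequence to which reads of another library were aligned; for the 767 that was not tested. Counted over the 16 libraries together, the share of tiles with a peak was lower in longer runs: 160 of 482 single tiles (33.2%), 35 of 184 in runs of 2 (19.0%), 22 of 172 in runs of 3 or 4 (12.8%) and 15 of 161 in runs of 5 to 13 (9.32%). Single libraries did not all follow this order; 5 µg replicate 1, for instance, had a peak in 1.63% of tiles in runs of 2 and in 4.07% of those in runs of 3 or 4.

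No library had many peaks in the empty tiles. The mean over replicates was highest at 250 ng, but 500 ng replicate 1 had fewer tiles with a peak than either 1 µg library. The 5 µg libraries had peaks in 28 and 22 of the 999 tiles (2.80% and 2.20%), where 89.9% and 92.1% of all full tiles held one of their peaks. The 3 µg libraries had 30 and 36 (backgrounds 90.5% and 92.2%), and the 1 µg libraries 53 and 60 (92.1% and 90.3%). The 500 ng libraries had 43 and 87 (89.2% and 89.3%), and the 250 ng libraries 86 and 72 (88.3% and 88.8%). The 100 ng library had 2 (background 56.7%). Replicates were close at 250 ng, 7.91% ± 0.991 (SD, n = 2), at 1 µg, 5.66% ± 0.495, and at 5 µg, 2.50% ± 0.425, but far apart at 500 ng, 6.51% ± 3.11.

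**Figure D3:**
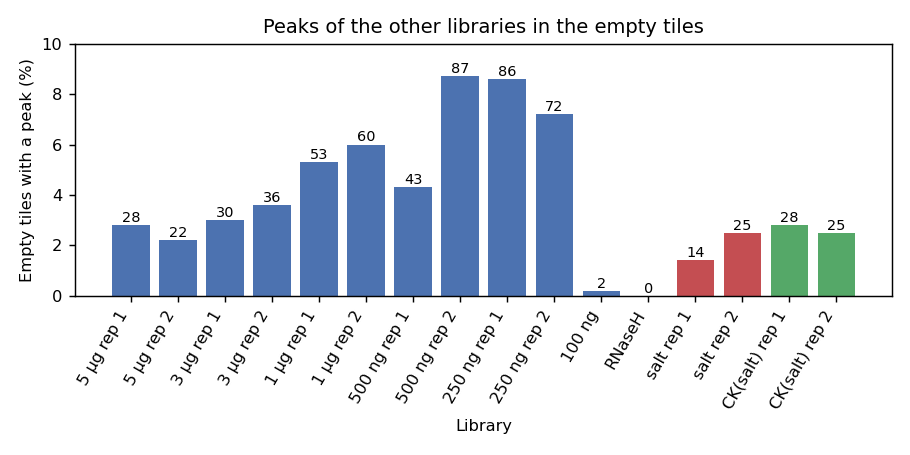
Percent of the 999 empty tiles that held at least 1 peak, for each of the 16 libraries outside the 8 µg pair (bars; the number above each bar counts tiles; blue, DNA input series; grey, RNaseH; red, salt; green, CK(salt)). The bars stand at 22 to 36 tiles for 5 and 3 µg and at 86 and 72 for 250 ng, with 2 at 100 ng, 0 in the RNaseH library and 14 to 28 in the salt and CK(salt) libraries.

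Set against the length of each list, the 250 ng libraries and 500 ng replicate 2 again had the highest values. Peaks in empty tiles made up 0.0575% and 0.0378% of the 5 µg lists, 0.0621% and 0.0647% of the 3 µg lists, 0.0976% and 0.144% of the 1 µg lists, 0.111% and 0.225% of the 500 ng lists, 0.242% and 0.199% of the 250 ng lists and 0.0135% of the 100 ng list. The 250 ng libraries lay above every library of 5 µg to 500 ng except 500 ng replicate 2, which exceeded 250 ng replicate 2. Their mean exceeded that of those 8 libraries by 0.121 percentage points (two-sided exact permutation p = 0.0444, 0.104 after Benjamini-Hochberg adjustment over 7 tests), so the difference did not pass after adjustment. With tiles defined without 8 µg replicate 1 the difference was 0.237 points, and with 50 kb tiles 0.00629. Part of the difference may be set by the rule. The tiles lack peaks of the 8 µg lists, and 250 ng is farther from 8 µg in amount than the libraries it was compared with.

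Across all 11 input libraries below 8 µg, the relation with the amount of DNA on the log2 scale did not pass. A limit applies to each correlation with input, with or without the 100 ng library. The tiles lack peaks of the 8 µg lists, the top of the same input series. A list that resembles the 8 µg lists therefore has few peaks there by construction, so a negative relation may be set in part by the rule. How much of it was so set was not computed. For the percent of empty tiles with a peak, Pearson's r was -0.31 (permutation p = 0.352, adjusted 0.492) and Spearman's rho was -0.409 (permutation p = 0.210, adjusted 0.294); for the percent of peaks, r was -0.45 (permutation p = 0.167, adjusted 0.291) and rho was -0.446 (permutation p = 0.169, adjusted 0.294). The 100 ng library decided this call. Without it, r was -0.88 for tiles (permutation p = 0.0018, adjusted 0.00315) and -0.90 for peaks (permutation p = 0.00073, adjusted 0.0017), with rho -0.886 and -0.935. The call for tiles was lost again with 50 kb tiles (r = -0.525, adjusted permutation p = 0.209), with tiles defined without 8 µg replicate 2 (-0.693, 0.058), and with only replicate 2 or only replicate 1 of each amount (-0.919 and -0.868, adjusted exact permutation p = 0.0875 and 0.0729); that for peaks was lost with only replicate 2 (-0.951, adjusted exact permutation p = 0.0875). With 1 of the 5 µg libraries left out as well as the 100 ng library, the pair farthest from the median amount, gave r of -0.866 or -0.853 for tiles and -0.898 or -0.883 for peaks.

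The relation was also computed with list length or coverage held constant, which does not remove the part set by the rule. With list length held constant the partial correlation over all 11 libraries was -0.87 for tiles and -0.865 for peaks (permutation p = 0.00082 and 0.00075), and with background coverage held constant it was -0.842 and -0.845 (permutation p = 0.00172 and 0.00146). Without the 100 ng library the values for tiles and peaks were -0.802 and -0.806 with list length constant. With coverage constant they were -0.867 and -0.885. The numbers in the peak names put the libraries in 9 runs of consecutive codes, and 3 of these runs held more than 1 input amount. In each of the 3 runs the smaller amount had more empty tiles with a peak, from 2.80% over 3.00% to 4.30% at 5 µg, 3 µg and 500 ng, from 2.20% over 3.60% to 5.31% at 5 µg, 3 µg and 1 µg, and from 6.01% to 8.71% at 1 µg and 500 ng. Within these runs the correlation over 8 libraries was -0.815 for tiles and -0.843 for peaks (exact permutation p = 0.0139 for each, the smallest that the 72 arrangements allow). The 250 ng libraries formed a run of their own, so their run and their amount cannot be told apart.

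The low-input libraries had peaks in the same empty tiles more than the high-input libraries did. Both 250 ng libraries had a peak in 55 tiles, 64.0% of the tiles of replicate 1 and 76.4% of those of replicate 2 (both 250 ng libraries had one in 86.5% of all tiles). Among the 4 libraries of 500 and 250 ng, every pair shared 29 to 64 tiles, 33.3% to 77.8% of either library's tiles. Among the 4 libraries of 5 and 3 µg the pairs shared 2 to 10 tiles, 5.56% to 35.7%. A peak in all 4 of the 500 and 250 ng libraries was present in 24 empty tiles (84.5% of all tiles), and in all 4 of the 5 and 3 µg libraries in 0 (87.8% of all tiles), where the count of 0 allows a share of up to 0.300%. Only 16 tiles had a peak in a 250 ng library and in no other of the 16 (0.129% of all tiles). The rule bears on this difference in sharing. A place common to the high-input libraries may also have a peak in the defining lists, and such a place cannot lie in an empty tile. The 500 and 250 ng libraries also had peaks in more empty tiles, 43 to 87 each against 22 to 36 at 5 and 3 µg, which leaves more room for sharing. How much of the difference was so set was not computed, and the difference was not tested.

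The limit given for sharing applies here too. The 1 µg libraries differed from each other. Replicate 2 shared 24 to 48 of its 60 tiles (40% to 80.0%) with each library of 500 and 250 ng, whereas replicate 1 shared 11 to 14 of its 53 (20.8% to 26.4%), and the 2 replicates shared 11 tiles. Replicate 2 and 500 ng replicate 2 lay in the same run of codes; 500 ng replicate 1 lay in a run with 5 and 3 µg libraries, and still shared 31 of its 43 tiles (72.1%) with 250 ng replicate 1 and 29 (67.4%) with 500 ng replicate 2, against 5 and 6 with the 5 µg and 3 µg libraries of its own run.

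**Figure D4:**
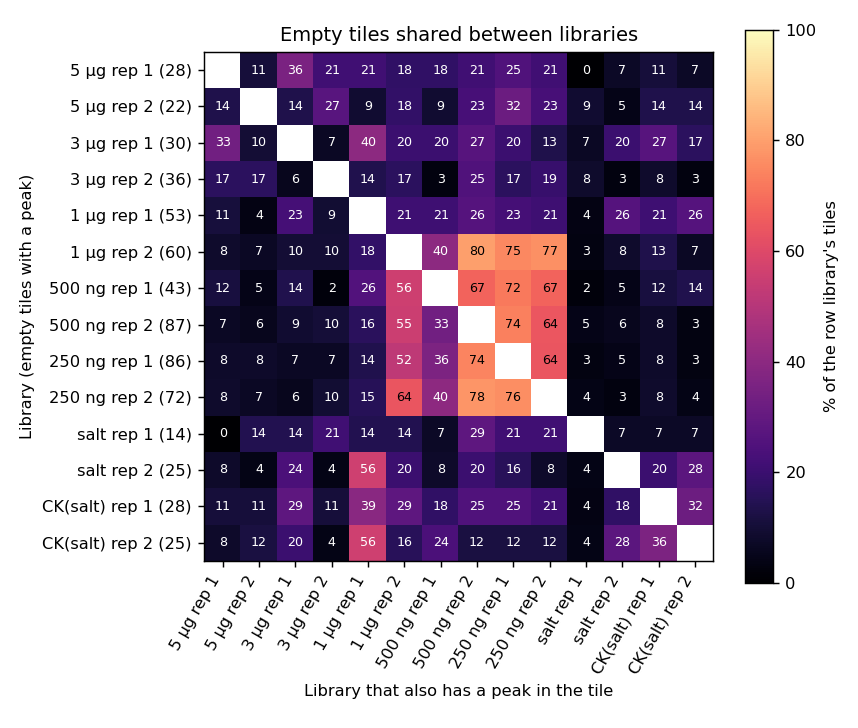
Sharing of empty tiles between 14 libraries: each cell gives the percent of the row library's empty tiles with a peak that also held a peak of the column library (the number after each row name counts its tiles). The 500 ng and 250 ng libraries and 1 µg replicate 2 share many tiles, up to 80.0%, while pairs of 5 and 3 µg libraries share 35.7% at most. The rule bears on these values.

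Few salt peaks lay in the empty tiles. The salt libraries had peaks in 14 and 25 tiles (1.40% and 2.50%), where 82.9% and 85.1% of all tiles held one, and the CK(salt) libraries in 28 and 25 (2.80% and 2.50%), where 91.3% and 88.2% did. The means were 1.95% ± 0.779 and 2.65% ± 0.212 (SD, n = 2 each), a difference of -0.70 percentage points (two-sided exact permutation p = 0.667, adjusted 0.778). As a share of the lists, which differ in length, salt had 0.0426% and 0.0724% and CK(salt) 0.0541% and 0.0616%, means of 0.0575% and 0.0579% (exact permutation p = 1). With 2 libraries against 2 the smallest p that the test allows is 0.333, so no difference could have passed.

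Most salt peaks lay in single empty tiles, as most CK(salt) peaks did. All 14 tiles of salt replicate 1 were single empty tiles, as were 21 of the 25 of replicate 2, and no tile in a run of 5 or more held a salt peak. In the CK(salt) libraries 25 of 28 and 18 of 25 tiles were single, and 1 and 0 lay in runs of 5 or more. In the 250 ng libraries 55 of 86 and 52 of 72 tiles were single, and 4 and 1 lay in runs of 5 or more. Only 1 empty tile held a peak of both salt libraries (79% of all tiles did), while 9 held a peak of both CK(salt) libraries (87.4%). The shared salt tile held no CK(salt) peak, and 6 of the 9 held no salt peak; over all tiles these patterns made up 0.113% and 1.96%. A salt peak with no peak of any other of the 16 libraries was found in 12 empty tiles (0.0966% of all tiles).

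The tile with both salt peaks was on chromosome 4 from 2080001 to 2100000. Its salt peaks, from 2086072 to 2086309 and from 2086078 to 2086286, had folds over local background of 9.69 and 6.56 and ranked at percentiles 98.2 and 76.0 of their lists. At the same place 3 µg replicate 1 and 1 µg replicate 1 also had a peak, with folds of 6.68 and 4.86, so the peak was not found in salt libraries alone. The peaks of 1 µg replicate 2, 500 ng replicate 2 and 250 ng replicate 1 lay elsewhere in the tile, between 2084385 and 2084773. The nearest 8 µg peaks around the tile were 54.4 kb apart. Of the tiles with both CK(salt) peaks and no salt peak, the 3 highest ranked were on chromosome 10 from 9400001 to 9420000, where the folds were 5.62 and 7.36, on chromosome 4 from 7440001 to 7460000, where they were 5.62 and 4.34, and also on chromosome 4 between 12800001 and 12820000, where they were 3.64 and 6.04.

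The peaks found in empty tiles were weaker and narrower than the rest of the same lists. The rule bears on this: a place where the 8 µg lists had a peak cannot lie in an empty tile, so strong peaks common to many libraries were left out by construction, and the values are a description without a test. In all 15 libraries with such peaks the median percentile by q-value was lower inside empty tiles, from 4.69 to 38.9 with a median of 21.0, against about 50 outside. The mean difference was -29.6 percentile points. Median widths inside were 201.5 to 393.5 bp and outside 273 to 515 bp, a mean difference of -128.8 bp in the same direction in 15 of 15 libraries. Median folds ranged from 2.78 to 4.86 inside and 3.78 to 6.07 outside, lower inside in 15 of 15. Without the 100 ng library, which had only 2 peaks inside, widths were 230 to 393.5 bp inside and 315 to 515 bp outside. Folds outside were then 3.78 to 5.57. With 50 kb tiles the differences were smaller, -14.4 percentile points and -24.5 bp.

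Their surroundings also differed. The local background at the summit exceeded the genome-wide level by more than 5% for 0 to 17% of peaks in empty tiles. For the others it did so for 68.3% to 83.8% (68.3% to 77.0% without the 100 ng library). Because peaks elsewhere stand close together, the comparison was repeated on lone peaks, those with no other peak of the same list within 10 kb. In the 14 libraries with lone peaks inside, a raised background was then found for 0 to 4% inside empty tiles and 18.1% to 58.2% outside, lower inside in each of the 14. Lone peaks inside were also narrower, with median widths of 218.5 to 358 bp against 341 to 563 bp, and ranked at percentiles of 6.0 to 31.2 against 53.2 to 61.4. The lone peaks compared were thus unlike in strength and width, so the repeat does not separate background from peak strength.

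The 690 peaks of the other libraries in empty tiles merged into 325 regions. Of these, 163 (50.2%) were seen in 1 library and 162 in 2 or more, 29 in 5 or more, with at most 7 libraries at 1 region. The distance to the nearest 8 µg peak is in part set by the rule, as the tiles hold none, and is given as a description. Of the 690 peaks, 19 lay within 1 kb of an 8 µg peak, the median distance was 10.0 kb, 113 lay 20 kb or more away, and the farthest 96.2 kb.

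The tile with peaks of the most libraries was on chromosome 11 from 17960001 to 17980000, a single empty tile with peaks of 10 libraries. In 6 of these the peak lay at the same place, between 17968934 and 17969299, with folds of 3.70 in 3 µg replicate 1, 6.11 in 1 µg replicate 1, 5.50 in 500 ng replicate 1, 5.74 in salt replicate 2 and 4.27 and 6.04 in the CK(salt) libraries. These ranked between percentiles 15.6 and 63.6 of their lists. Both 250 ng libraries had instead a peak near 17972786, with folds of 3.24 and 3.05.

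A tile on chromosome 11 from 26880001 to 26900000 had 15 peaks of 9 libraries at several places. One was a peak across the end of the tile, between 26899893 and 26900675, in 3 µg replicate 1, both 1 µg libraries, salt replicate 2 and CK(salt) replicate 1, where the fold was highest at 7.61. Another lay between 26881229 and 26882709 in 1 µg replicate 2, 500 ng replicate 2 and both 250 ng libraries, with folds of 3.17 to 3.73. In the tile on chromosome 11 from 22720001 to 22740000, 1 µg replicate 2 and the 4 libraries of 500 and 250 ng had a peak near 22729092, and the CK(salt) libraries had one near 22734345. Both 250 ng libraries had a further peak close to the latter, from 22735001 and from 22735082.

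Of the other 7 tiles among the 10 with peaks of the most libraries, 5 were single empty tiles, on chromosome 4 from 16460001 and from 2080001, on chromosome 1 from 12440001 and from 4600001, and on chromosome 7 from 21080001. The remaining 2, on chromosome 9 from 60001 and from 100001, lay in the same run of 4 empty tiles, from 60001 to 140000 near the start of the chromosome, and each held 11 peaks. All 4 libraries of 500 and 250 ng had peaks in both.

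Tiles with few 8 µg peaks lay between the empty and the well-filled tiles in the 15 libraries other than RNaseH. The classes are counts of peaks in the defining lists, so this order restates how far the lists agree. It is a description without a test. In tiles with 1 peak, only 1 of the 2 replicates of 8 µg had it. In 250 ng replicate 1 a peak was present in 8.61% of empty tiles, 33.3% of the 303 tiles with 1 peak in the 8 µg lists together, 62.8% of 907 tiles with 2, 85.8% of 3143 with 3 to 5 and 97.9% of 13291 with 6 or more. In salt replicate 1 the same classes gave 1.40%, 9.24%, 55.1%, 76.8% and 94.1%, and in 5 µg replicate 1 the classes of 0, 1 and 2 peaks gave 2.80%, 20.5% and 72.1%.

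Peak density was also low beside the empty tiles. The rule bears on this: the gap without a peak in the defining lists usually ran on from an empty tile into the tiles beside it. Part of an adjoining tile was then without such peaks by construction, so the values are a description without a test. In the tile adjoining an empty one, the 15 libraries had 63.5% to 70.6% of the peaks per tile found more than 200 kb away, and at 100 kb 88.3% to 96.4%. In 250 ng replicate 1 these were 1.84 peaks per adjoining tile against 2.71 far away, and in salt replicate 1 1.41 against 2.00. The depth of the dip was thus similar in all 15 libraries, including 100 ng, at 68.8% in the adjoining tile. How much of this depth was set by the rule was not computed.

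**Figure D5:**
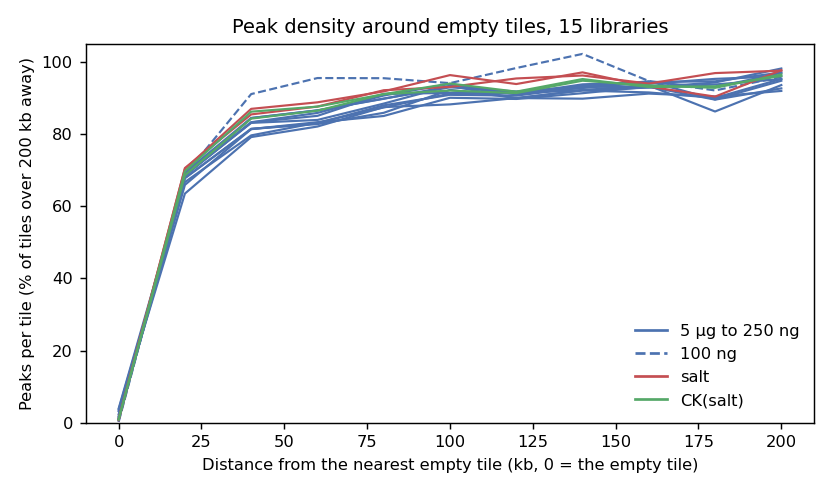
Peaks per tile as a percent of tiles more than 200 kb from any empty tile (y axis), against the distance to the nearest empty tile in kb (x axis, 0 being the empty tile). The values in the adjoining tile are in part set by the rule. Each line is 1 of 15 libraries (blue, inputs from 5 µg to 250 ng; dashed, 100 ng; red, salt; green, CK(salt)); all reach 63.5% to 70.6% in the adjoining tile and 88.3% to 96.4% at 100 kb.

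The RNaseH library had no peak in an empty tile. Its 123 peaks lay in few tiles (0.37% of all), and 0 of 999 empty tiles allows a share of up to 0.300% by counting error alone; as its peaks were clustered, the tiles are not independent, and the difference was not tested. Its peaks were near empty tiles more often than those of other lists: 22 of 123 (17.9%, exact 95% interval 11.6% to 25.8%) lay in a tile adjoining an empty one, where the 15 other lists had 4.90% to 5.27% of their peaks. Within 3 tiles the shares were 56 of 123 (45.5%, 36.5% to 54.8%) and 14.4% to 15.5%. The intervals cover counting error only and treat peaks as independent, although the peaks were clustered: of 69 tiles with an RNaseH peak, 14 (20.3%) adjoined an empty tile and 24 (34.8%) lay within 3, against 6.97% and 17.8% of tiles with an 8 µg peak. Without chromosome 12, which held 47 of the 123 peaks, 16 of 76 (21.1%) adjoined an empty tile, while the share within 3 tiles fell to 29 of 76 (38.2%). Chromosome 4 gave 7 of the 22 adjoining peaks, from 9 peaks. With 1 RNaseH library the difference has no replicate check. Of the 10 longest runs, that on chromosome 9 had 13 RNaseH peaks within 100 kb, the nearest 47.6 kb away, and the other 9 had none within that distance.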

How the data were processed

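The authors deposited 1 peak list per library, without headers. Per the submitters' processing notes, the tools were Bowtie2, a read aligner, and MACS2 2.1.4, a peak caller; settings and genome build are not given in the sources used here. The deposited columns give each peak's interval, a score (whole-number form of the q-value), the fold over local background (a ratio), and −log10 of the p-value and the q-value; these are the authors' values, used within a list only. Read counts are not part of the lists; background coverage was solved from fold and p-value with a tolerance of 0.002.

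Tiles, runs and overlaps (minimum 1 bp) were computed in Python 3.11.15 with numpy 2.4.6, pandas 2.3.3 and scipy 1.17.1; matplotlib 3.10.9 drew the plots. Coordinates are 1-based on the deposited build. Group differences and sign flips were tested by exact permutation, correlations by exact permutation under 10 libraries and by 100000 resamples otherwise. P-values were adjusted over 7 tests by the Benjamini-Hochberg method. The 7 include the percentile and width contrasts, which are reported as descriptions because the rule bears on them. In the main setting these contrasts had the smallest p-values of the 7, which lowered the adjusted values of most other tests. A family without them would give higher adjusted values for those tests, and was not computed. Overlap and depth steps were tested on simulated lists. The members, lists and tests were chosen with earlier results of these data known. Runs and tiles were named by rule: the 10 longest runs, the 10 empty tiles with peaks of the most libraries, up to 3 salt-only and 3 CK(salt)-only tiles, and any tile with an RNaseH peak. No gene is named, because the annotation at hand is of another assembly. Shared replicate numbers were not taken as pairs: same-numbered input libraries' deviations correlated at -0.0919 to 0.302 over 10 pairs of amounts.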

Additional observations from a re-analysis of the deposited data

How the results depend on the processing

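Tile size set the counts: with 10 kb tiles 5258 were empty and 4096 had no peak in any list, with 50 kb tiles 94 and 71, and the longest run was 200 kb with 50 kb tiles and 240 kb with tiles starting at 10 kb. From 1 list of the 8 µg pair, 1171 to 1180 tiles were empty. The correlation of tiles with input, -0.31, turned to 0.072 with 50 kb tiles. It passed at equal list length (32861 peaks, -0.816), without the 100 ng library (-0.882) and with the replicate block (-0.893). The settings of equal list length and replicate block also leave the 100 ng library out. Without 100 ng, settings added after seeing the data gave -0.898 (10 kb tiles), -0.874 (−log10 q of 5 or more), and no call with 50 kb tiles (-0.525), without 8 µg replicate 2 (-0.693) or without replicate 1 or 2 of each amount (-0.919 and -0.868). Leaving out 1 replicate, with or without 100 ng, gave -0.921 to 0.0367 (-0.187 without 8 µg replicate 1 alone), the last without 8 µg replicate 2. For peaks the same settings gave -0.826, -0.903, -0.912, -0.904 and -0.915, and -0.864 with 50 kb tiles; leave-outs gave -0.951 to -0.205, of which -0.935 and -0.867 (without 8 µg replicate 1 or 2) and -0.871 (without replicate 2 of each amount) passed, all without 100 ng. Salt minus CK(salt) had no stable sign: tiles turned to 0.50 at equal list length (leave-outs -2.18 to -0.15), and peaks to 0.00404 (8 µg peaks at −log10 q of 5 or more), 0.0105 (summit in the tile), 0.0167 (equal list length) and 0.00402 (bases, added later), with leave-outs from -0.0256 to 0.0145. The 250 ng excess stayed positive without passing, at 0.00629 to 0.738 over its alternatives (leave-outs 0.0812 to 0.237). The percentile and width differences shrank with 50 kb tiles (-14.4 and -24.5 bp), and leave-outs gave -31.3 to -27.7 and -136 to -112 bp. The replicate block changed no other call. The causes of these changes were not tested. In every setting the rule bears on the input correlations and on the 250 ng excess, as stated with those results. With a background coverage of 0.88, the absence of peaks in the 100 ng list says little about a tile.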
